A study of Mus musculus with 8 samples.

Results

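Nutrient transporters of the solute carrier (SLC) families were examined in the RNA of effector regulatory T cells (eTreg cells) from spleens and tumors. The genes are those whose symbol places them in the families Slc1, Slc2, Slc3, Slc5, Slc6, Slc7, Slc16, Slc27, Slc36, Slc38 or Slc43 and that had more than 80 counts in total over the 8 libraries. This rule found 61 of the 16611 genes in the authors' normalized table, and it used no difference between groups. A further 52 symbols of the same families were left out, with at most 65 counts each, and 15 of these had 0 counts. Of the 61 genes, 58 are carriers by name, and Slc2a4rg-ps (a pseudogene), Slc36a3os (an antisense transcript) and Slc7a6os carry a family name without being carriers.

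All mice were C57BL/6 and received B16-OVA melanoma cells under the skin together with NP-OVA in CFA on day 0, then NP-OVA in IFA on day 7, and tumors measured up to 1.5 cm3. The WT mice were FoxP3YFP-Cre and the KO mice were Prdm1fl/flFoxP3YFP-Cre, so that both genotypes carry the YFP-Cre allele and Prdm1, which encodes Blimp1, is deleted in KO cells that express Foxp3. CD44+YFP+ CD4 T cells were sorted from the spleen or as tumor-infiltrating lymphocytes (TIL), which gives WT spleen, KO spleen, WT TIL and KO TIL, each with 2 libraries. The labels do not say whether the 2 libraries of a group came from separate mice, so the p-values measure the spread between these samples only, which may be technical.

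SLC carriers move sugars, amino acids, lactate, creatine, taurine and fatty acids across membranes, and their abundance helps set how much of a nutrient a cell can take up or release. Only their RNA is described here, not carrier protein or transport. When T cells are activated they place more Glut1 (Slc2a1) and more of the CD98 complex on their surface, the latter being the heavy chain Slc3a2 joined to a light chain such as Slc7a5 that exchanges glutamine for leucine. Lactate leaves glycolytic cells through Mct4 (Slc16a3) and passes in either direction through Mct1 (Slc16a1), and Slc38 and Slc1 carriers bring in glutamine and other small neutral amino acids. Treg cells in tumors are known to live with little glucose and much lactate.

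Libraries held 27834676 to 43903859 counts on genes. Levels are given as CPM, counts brought to 1 library total after TMM scaling over the 8 libraries. Genes are compared with each other only in TPM, which also divides by exonic length. Prdm1 itself was at 54.05 and 21.00 CPM in WT spleen, 40.6 and 53.4 in KO spleen, 108 and 192 in WT TIL and 90.7 and 75.1 in KO TIL. Its count per gene also takes reads outside a deleted exon, so it checks the labels only in part. Both KO TIL libraries lay under both WT TIL libraries, and the splenic genotypes overlapped. The 7 markers of Treg and CD4 T cells summed to 4103 to 4885 CPM in the splenic libraries and 7880 to 10674 CPM in WT TIL. In KO TIL they summed to 1363 and 3378 CPM. Most of the rise in WT TIL was Ctla4, at 310 to 389 CPM in spleen and 4136 and 5719 CPM in WT TIL. In WT TIL over WT spleen, Il2ra and Cd4 had log2 fold changes of 0.95 and 0.58. Foxp3, Ikzf2, Cd3e and Cd3g had -0.57 to -0.26 there, and none of these was called. Foxp3 was at 10.2 and 2.99 CPM and Cd4 at 148 and 66.2 CPM in KO TIL, below every splenic library. Il2ra, Ikzf2 and Cd3e in KO TIL also lay below every splenic library. Cd3g was at 299 CPM in KO TIL 1 and 1223 CPM in KO TIL 2, the latter within the splenic range. Ctla4 in KO TIL, at 461 and 917 CPM, lay above every splenic library. Cd8a stood in KO TIL at 217 and 1214 CPM against 2.33 to 71.8 CPM elsewhere. KO TIL 1 stood apart with 14506 CPM over 7 macrophage and monocyte markers, where the other 7 libraries had 237 to 2866 CPM, and 7 melanoma markers summed to 837 to 3234 CPM in TIL and to at most 6.74 CPM in spleen. The part of these other cells in the results for the carriers was not tested, and in such bulk samples fewer cells of a type and less RNA per cell cannot be told apart.

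Promoters of 44 of the 61 genes were in the RefSeq table of 300-base windows (GRCm38.p6). The 250 bases before the start site are printed for 5 of them, 5′ to 3′ on the strand of the gene. Slc16a3 (chr11:120948480-120960868, window chr11:120948817-120949066, plus strand) and Slc2a1 (chr4:119108711-119137983, window chr4:119108495-119108744, plus strand) were called higher in WT TIL, and Slc3a2 (chr19:8706882-8723369, window chr19:8713898-8714147, minus strand) was called so in KO TIL. Capitals in these mark ACGTG, the core of the hypoxia response element, on either strand. Slc7a11 (chr3:49892526-50443614, window chr3:50443614-50443863, minus strand), the cystine carrier, is shown for its pair of TGATGNAA matches, the amino acid response element that Atf4 binds, in capitals. Slc7a10 (chr7:35186385-35201114, window chr7:35186135-35186384, plus strand), called lower in TIL of both genotypes, held none of the motifs searched and so has no capitals.
Slc16a3: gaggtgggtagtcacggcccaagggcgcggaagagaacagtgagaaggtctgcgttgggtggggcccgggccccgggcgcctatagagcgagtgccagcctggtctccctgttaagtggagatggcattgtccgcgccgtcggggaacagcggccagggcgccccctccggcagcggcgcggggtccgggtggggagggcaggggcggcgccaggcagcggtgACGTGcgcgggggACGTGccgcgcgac
Slc2a1: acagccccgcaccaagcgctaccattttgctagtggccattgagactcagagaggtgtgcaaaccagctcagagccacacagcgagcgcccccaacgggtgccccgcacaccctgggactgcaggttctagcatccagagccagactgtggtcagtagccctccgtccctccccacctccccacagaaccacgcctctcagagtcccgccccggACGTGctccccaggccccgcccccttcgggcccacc
Slc3a2: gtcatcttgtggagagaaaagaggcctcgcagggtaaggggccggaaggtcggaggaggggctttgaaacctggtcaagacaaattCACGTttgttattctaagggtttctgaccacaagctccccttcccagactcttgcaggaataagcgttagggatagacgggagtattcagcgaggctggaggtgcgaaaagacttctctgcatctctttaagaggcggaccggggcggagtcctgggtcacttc
Slc7a11: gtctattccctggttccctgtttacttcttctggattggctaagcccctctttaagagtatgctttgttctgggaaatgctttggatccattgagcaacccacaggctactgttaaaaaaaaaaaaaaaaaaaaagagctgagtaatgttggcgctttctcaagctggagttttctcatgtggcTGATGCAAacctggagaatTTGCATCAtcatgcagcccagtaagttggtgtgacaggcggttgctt
Slc7a10: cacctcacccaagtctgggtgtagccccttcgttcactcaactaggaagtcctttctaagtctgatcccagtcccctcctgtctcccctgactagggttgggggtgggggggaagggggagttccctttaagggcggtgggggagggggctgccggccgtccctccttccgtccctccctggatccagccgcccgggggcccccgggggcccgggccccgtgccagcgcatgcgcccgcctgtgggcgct

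ACGTG, on either strand of the 300-base windows, was present for 14 of the 44 genes (31.8%), against 21.8% of all 27025 genes with a promoter. In Slc16a3 it begins 27 and again 14 bases before the start site, in Slc2a1 36 bases before it, and in Slc3a2 164 bases before it on the opposite strand. TGATGNAA was found for 3 of the 44 genes, namely Slc1a4, Slc7a7 and Slc7a11, a share of 6.82% against 4.51% of all genes. GTGAAAG, the core of the site that Blimp1 binds, was in the windows of Slc6a9, Slc6a17, Slc38a7 and Slc38a9, or 9.09% of the 44 genes against 4.89% of all. No motif contains another, though their ends can share bases, and a match describes the window and is not a measured binding site.

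The 61 genes took up 0.130 to 0.191% of the counts in spleen and 0.324 to 0.456% in TIL, and their levels summed to 1704 and 1308 CPM in WT spleen, 1688 and 1694 in KO spleen, 3907 and 3373 in WT TIL and 5104 and 3985 in KO TIL. Every TIL library was above every splenic one. Per length, Slc1a5, which takes up glutamine, had the highest mean level of the 61 genes in spleen, at 164 and 58.7 TPM in WT and 135 and 165 TPM in KO cells, where Slc3a2 and Slc38a2 came next, although in WT spleen 2 Slc3a2 exceeded it at 83.02 TPM. In TIL the order of mean levels was Slc3a2, Slc2a1, Slc38a2 and Slc16a3 in both genotypes, with Slc3a2 at 339.7 and 315 TPM in WT TIL and 399.5 and 336 TPM in KO TIL. Slc2a1 was at 312 and 285 TPM in WT TIL and 455 and 236 TPM in KO TIL, so that its place behind Slc3a2 held in both WT TIL libraries and in KO TIL 2 but not in KO TIL 1. WT spleen 2 stood under the other splenic libraries in the sum over the 61 genes, at 490.0 TPM against 926 to 991 TPM.

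**Figure D1:**
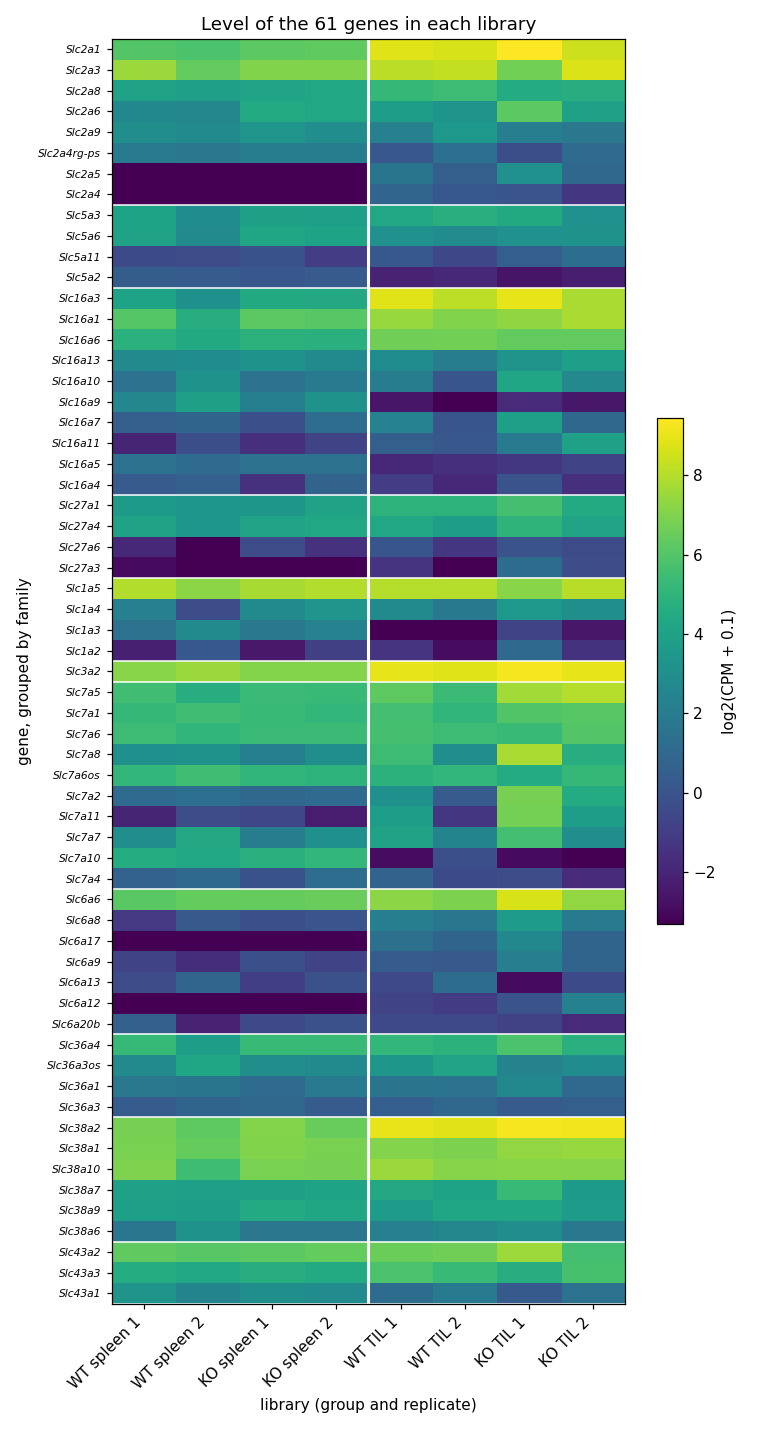
Level of each of the 61 genes (rows, grouped by family) in the 8 libraries (columns), as log2 of CPM plus 0.1 on the color scale. Slc2a1, Slc16a3, Slc38a2 and Slc3a2 are brighter in all 4 TIL libraries, while Slc7a10, Slc16a9 and Slc5a2 are darker there. These darker genes entered through splenic counts alone, so the choice itself favored a lower level in TIL.

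TIL were compared with splenic eTreg cells in each genotype to see which carriers differ with the tissue. In WT cells, 58 of the 61 genes passed the filter on low counts, and 8 were called higher (4.10% of all 16427 genes tested were) and 4 lower (1.87% of all genes). A gene was called at an adjusted p under 0.05 by edgeR's quasi-likelihood test together with a log2 fold change beyond 1 in either direction, and SE stands for its standard error. The sugar carriers Slc2a1, Slc2a4 and Slc2a5, the monocarboxylate carriers Slc16a3 and Slc16a6, the amino acid carrier Slc38a2 and the Slc6 members Slc6a12 and Slc6a17 were higher, and Slc1a3, Slc7a10, Slc16a5 and Slc16a9 were lower. Of these 12, Slc2a4, Slc2a5, Slc6a12 and Slc6a17 passed the minimum of 80 counts through the TIL libraries alone and the 4 lower genes through the splenic libraries alone. A gene that enters only through the tissue where it is high was favored to differ by the choice itself. The numbers of calls and the medians over the genes are therefore descriptions and support nothing. The calls of Slc2a1, Slc16a3, Slc16a6 and Slc38a2 do not rest on this, since each passed the minimum in either tissue. In KO cells all 61 genes were tested, and Slc7a5, Slc3a2, Slc38a2 and Slc16a3 were called higher (0.803% of 16933 genes were) and Slc7a10 lower (0.543%), of which Slc7a10 alone entered through only 1 tissue. Slc16a3, Slc38a2 and Slc7a10 were called in both genotypes, as the plot of the log2 fold changes in WT and KO cells shows.

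The median log2 fold change over the genes tested was 0.37 in WT cells, where it was -0.04 over all genes, and 0.72 in KO cells, where it was 0.01. With KO TIL 1 left out, the median in KO cells was 0.27. Both TIL libraries lay above both splenic libraries for 25 genes in WT cells (25.1% of all genes did) and below them for 10 (27%), and 23 overlapped. In KO cells these numbers were 29 (30.6% of all genes), 11 (32.9%) and 21. The count of 5 calls in KO cells depended on the test and on single libraries, with 27 by DESeq2's Wald test, all 5 among them. The share of all genes that DESeq2 called there is not given, so the 27 are a description and no result about the carriers. In WT cells the number of calls depended on WT spleen 2. The 2 comparisons share no library.

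**Figure D2:**
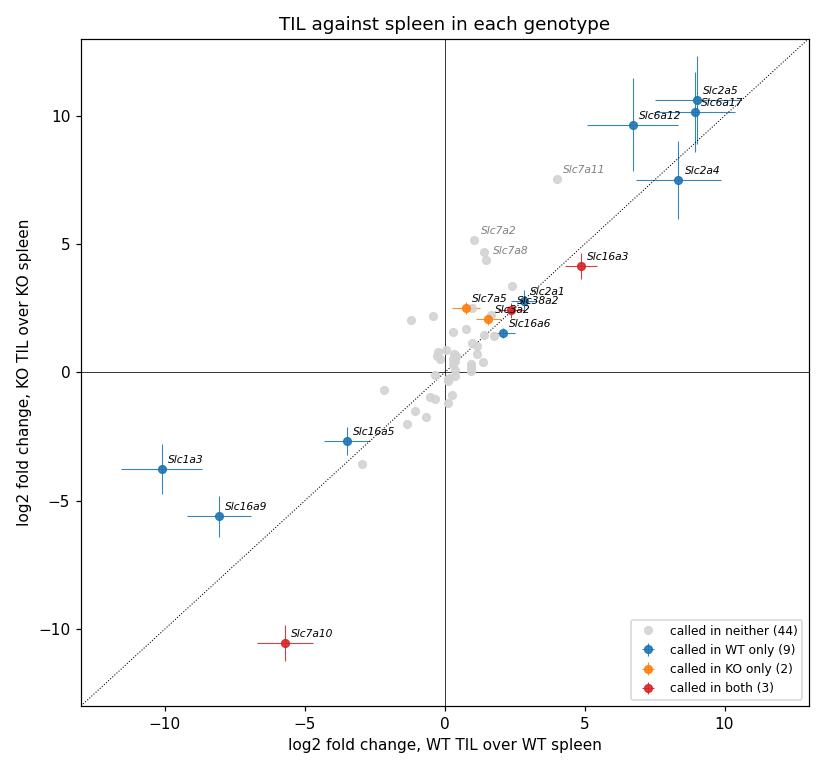
Log2 fold change of TIL over spleen in WT cells (x axis) and KO cells (y axis) for the genes tested in both, colored by where they were called; bars are standard errors and the dotted line marks equal change. Slc16a3 and Slc38a2 lie at the upper right and Slc7a10 at the lower left; Slc7a2, Slc7a8 and Slc7a11, labelled in grey, lie above the line and were not called.

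Among the sugar carriers, Slc2a1, which encodes the glucose carrier Glut1, was at 65.1 and 56.1 CPM in WT spleen, 74.4 and 80.1 in KO spleen, 457 and 409 in WT TIL and 693 and 354 in KO TIL. All 4 TIL libraries were above all 4 splenic ones. The log2 fold change was 2.84 (SE 0.46, edgeR adjusted p = 0.00674) in WT cells. In KO cells Slc2a1 just missed the threshold, at 2.78 (SE 0.42, edgeR adjusted p = 0.0555), and DESeq2 gave an adjusted p of 2.28e-07. Slc2a3, which encodes the glucose carrier Glut3 with its high affinity, was at 181 and 81.8 CPM in WT spleen, 131 and 132 in KO spleen, 273 and 312 in WT TIL and 107 and 427 in KO TIL. Its log2 fold change was 1.16 (SE 0.50, edgeR adjusted p = 0.222) in WT cells. In KO cells Slc2a3 had 1.02 (SE 0.65, edgeR adjusted p = 0.35), and it passed in neither. KO TIL 1 held the lowest Slc2a3 of the TIL libraries and the highest Slc2a1. Of the TPM of both glucose carriers together, Slc2a1 made up 42.6 and 58.6% in WT spleen and 54.02 and 55.7% in KO spleen. In TIL its share was 77.6 and 73.1% in WT TIL and 93.1 and 63.1% in KO TIL. Each TIL library had a larger Slc2a1 share than each splenic one.

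Slc2a5, the fructose carrier, and Slc2a4, the insulin-regulated carrier Glut4, had 0 counts in all 4 splenic libraries. Slc2a5 was at 2.98 and 1.35 CPM in WT TIL and 8.76 and 1.91 CPM in KO TIL, so that it was at least 22.0-fold higher than spleen in WT and at least 75.9-fold higher in KO cells, against a floor of 3 counts per library. Slc2a4 reached 1.69 and 1.05 CPM and 0.920 and 0.299 CPM, or at least 13.9-fold higher in WT and at least 8.68-fold higher in KO cells. Both entered through TIL counts alone, so their calls in WT cells are no independent test, and neither was called in KO cells. Their TIL levels are low, and the 4 TIL libraries stood in the same order for Slc2a5 as for the summed macrophage markers. Slc2a8, an intracellular hexose carrier, stood at 15.95 and 14.8 CPM in WT spleen, 17.2 and 19.7 in KO spleen, 36.2 and 42.9 in WT TIL and 23.4 and 24.98 in KO TIL. Slc2a9, which carries urate, stood at 7.90 and 6.60 CPM in WT spleen, 9.90 and 7.63 in KO spleen, 4.63 and 11.1 in WT TIL and 4.25 and 3.25 in KO TIL. Neither passed in either genotype.

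Of the sodium-coupled Slc5 family, Slc5a6, which takes up biotin and pantothenate, was at 16.2 and 6.67 CPM in WT spleen, 17.8 and 17.1 in KO spleen, 8.80 and 6.98 in WT TIL and 8.69 and 8.86 in KO TIL. It was not called, with a log2 fold change of -0.97 (SE 0.28, edgeR adjusted p = 0.099) in KO cells. Slc5a2, a kidney glucose carrier, went from 1.26 and 1.21 and 0.988 and 1.17 CPM in WT and KO spleen to 0.144 and 0.169 and 0.0635 and 0.112 CPM in WT and KO TIL. It did not pass the test in WT cells, at -2.95 (SE 0.89, edgeR adjusted p = 0.0856), or in KO cells, at -3.57 (SE 0.65, edgeR adjusted p = 0.0607). Slc5a2 entered through splenic counts alone, so a lower level in TIL was favored by the choice itself. Exons of another gene cover 20.6% of its exonic length on the opposite strand, and whether counting used strand is not given in the sources used here. The myo-inositol carrier Slc5a3 was at 7.20 to 16.9 CPM in spleen and 8.60 to 25.9 CPM in TIL.

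The monocarboxylate carriers held the largest called increase among genes with counts in every library. Slc16a3, which encodes the lactate exporter Mct4, was at 16.9 and 8.38 CPM in WT spleen, 21.3 and 20.5 in KO spleen, 452 and 282 in WT TIL and 499 and 226 in KO TIL. Every TIL library was above every splenic one. The log2 fold change was 4.87 (SE 0.58, edgeR adjusted p = 0.00196) in WT cells. In KO cells Slc16a3 had 4.14 (SE 0.49, edgeR adjusted p = 0.0485). Slc16a1 (Mct1) was at 66.3 and 24.5 CPM in WT spleen, 73.3 and 70.6 in KO spleen, 176 and 129 in WT TIL and 157 and 222 in KO TIL. Its log2 fold changes of 1.76 (SE 0.54, edgeR adjusted p = 0.0901) and 1.41 (SE 0.24, edgeR adjusted p = 0.059) did not pass. DESeq2 gave adjusted p of 0.0219 and 0.00125. Of the TPM of both lactate carriers together, Slc16a3 was 17.5 to 22.1% in the 4 splenic libraries, 68.1 and 64.6% in WT TIL and 72.5 and 45.9% in KO TIL. Splenic cells thus held more Slc16a1 than Slc16a3 per length, and the order was the other way round in both WT TIL libraries and in KO TIL 1. Slc2a1 and Slc16a3 stood in the same order over the 4 TIL libraries as the summed melanoma markers did.

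Slc16a6 (Mct7), a carrier of ketone bodies, was at 27.9 and 21.6 CPM in WT spleen, 29.5 and 27.1 in KO spleen, 103 and 107 in WT TIL and 81.6 and 81.7 in KO TIL. It was called higher in WT cells, at 2.08 (SE 0.43, edgeR adjusted p = 0.0213), and fell just short of the threshold in KO cells, at 1.54 (SE 0.20, edgeR adjusted p = 0.0501). Its TIL levels differed little among the libraries, and exons of other genes cover 23.5% of its exonic length. Slc16a9, which carries carnitine, was at 5.90 and 15.3 CPM in WT spleen, 4.40 and 9.32 in KO spleen, 0.0718 and 0 in WT TIL and 0.190 and 0.0748 in KO TIL. WT TIL held 2 counts in all, against 627 in WT spleen, a ratio of 293 with a 95% counting interval of 80.8 to 2426 (edgeR adjusted p = 0.00395). In KO cells Slc16a9 did not pass, at -5.61 (SE 0.80, edgeR adjusted p = 0.054). Slc16a5 was at 2.63 and 2.14 CPM in WT spleen, 2.73 and 2.69 in KO spleen, 0.180 and 0.236 in WT TIL and 0.317 and 0.523 in KO TIL. It was called lower in WT cells, at -3.49 (SE 0.83, edgeR adjusted p = 0.0356), but not in KO cells, at -2.67 (SE 0.54, edgeR adjusted p = 0.0653). For both genes all 4 TIL libraries were below all 4 splenic ones. Both entered through splenic counts alone, so their calls in WT cells are no independent test. Exons of other genes on the opposite strand cover 23.5% of the exonic length of Slc16a9. Slc16a10, the aromatic amino acid carrier Tat1, was at 2.78 and 9.06 CPM in WT spleen, 2.58 and 3.65 in KO spleen, 4.20 and 0.978 in WT TIL and 18.7 and 6.28 in KO TIL. The KO TIL libraries were above those of KO spleen and WT TIL, with no call.

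The heavy chain of CD98, Slc3a2, was at 143 and 181 CPM in WT spleen, 133 and 136 in KO spleen, 501 and 456 in WT TIL and 612 and 506 in KO TIL. It was called higher in KO TIL, at 2.07 (SE 0.24, edgeR adjusted p = 0.0468). In WT cells edgeR did not call Slc3a2, at 1.56 (SE 0.45, edgeR adjusted p = 0.0731), and DESeq2 gave an adjusted p of 0.00912. The interaction of genotype and tissue was 0.49 (SE 0.43, edgeR adjusted p = 0.842). The light chain Slc7a5 (Lat1), which brings in leucine and other large neutral amino acids, was at 46.1 and 24.6 CPM in WT spleen, 41.6 and 40.4 in KO spleen, 77.5 and 41.6 in WT TIL and 204 and 262 in KO TIL. It rose in KO TIL, at 2.52 (SE 0.23, edgeR adjusted p = 0.0373), and both KO TIL libraries exceeded every other library. In WT cells Slc7a5 did not pass, at 0.76 (SE 0.50, edgeR adjusted p = 0.436), and the groups overlapped. Slc7a6 (y+LAT2) was at 42.4 and 33.7 CPM in WT spleen, 41.6 and 40.8 in KO spleen, 50.3 and 42.1 in WT TIL and 39.1 and 65.1 in KO TIL. Its tissues overlapped in both genotypes.

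Slc7a10 (Asc-1), a light chain for small neutral amino acids such as serine, glycine and alanine, was at 23.97 and 19.5 CPM in WT spleen, 27.6 and 34.7 in KO spleen, 0.0359 and 0.776 in WT TIL and 0.0317 and 0 in KO TIL. It fell in both genotypes, in WT cells at a log2 fold change of -5.72 (SE 0.997, edgeR adjusted p = 0.00917). In KO cells Slc7a10 went from 2655 counts to 1, a ratio of 1798 with a 95% counting interval of 322 to 71038 (edgeR adjusted p = 0.0332). Slc7a10 entered through splenic counts alone, so its calls are no independent test. Lrp3 exons on the opposite strand cover 17.9% of its exonic length. The remaining light chains were mostly low in spleen, though Slc7a7 was at 10.35 TPM in WT spleen 2, close to Slc7a5 at 10.73 TPM. Slc7a8 (Lat2) was at 8.35 and 9.45 CPM in WT spleen, 4.44 and 7.98 in KO spleen, 42.3 and 7.73 in WT TIL and 226 and 24.9 in KO TIL. Slc7a7 (y+LAT1) was at 7.69 and 21.04 CPM in WT spleen, 3.95 and 8.44 in KO spleen, 16.1 and 5.40 in WT TIL and 48.4 and 7.55 in KO TIL. Slc7a11 (xCT), which imports cystine for glutathione, was at 0.150 and 0.713 CPM in WT spleen, 0.558 and 0.101 in KO spleen, 13.6 and 0.304 in WT TIL and 109.9 and 13.9 in KO TIL. In each case KO TIL 1 was the highest of the 8 libraries, and edgeR called none of the 3 in either genotype. Slc7a11 entered through TIL counts alone, so a higher level in TIL was favored by the choice itself.

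Of the TPM of the 6 light chains together, Slc7a10 made up 30.3 and 28.9% in WT spleen and 36.6 and 40.3% in KO spleen, and at most 1.51% in any TIL library. Slc7a5 had 20.7 to 33.2% of it in spleen, 43.3 and 46.01% in WT TIL and 38.7 and 74.8% in KO TIL. The rest in KO TIL 1 was mostly Slc7a8, with 39.4% of the light chains, against 6.56% in KO TIL 2. The KO TIL libraries therefore differed from each other in their light chains, and both held almost no Slc7a10. Slc3a2 exceeded the 6 light chains together in every library but KO spleen 2, where it had 107 TPM against 113 TPM. In WT TIL it was at 339.7 and 315 TPM against 116 and 59.4 TPM. In KO TIL it was at 399.5 and 336 TPM against 328 and 221 TPM.

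**Figure D3:**
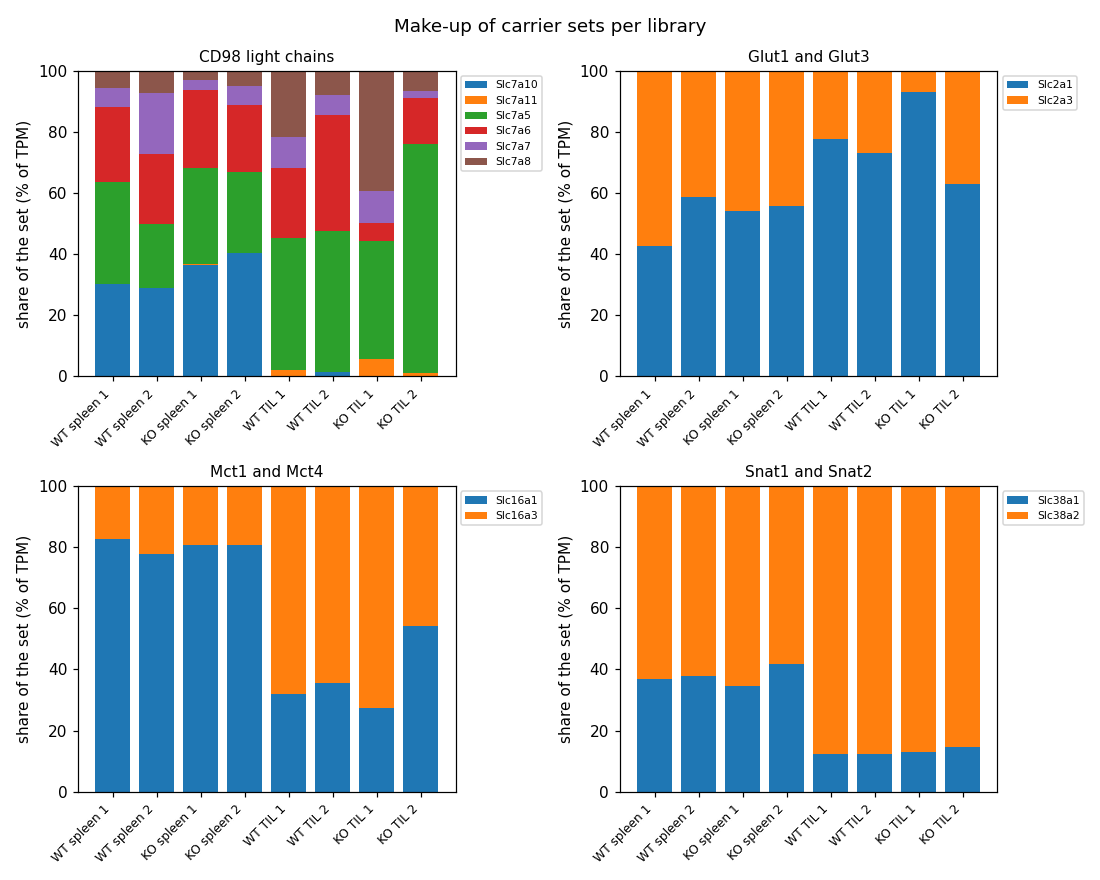
Share of TPM held by each member of 4 carrier sets (stacked bars, percent of the set) in the 8 libraries: 6 CD98 light chains, the glucose carriers Glut1 and Glut3, the lactate carriers Mct1 and Mct4, and the glutamine carriers Snat1 and Snat2. Slc7a10 is a large part of the light chains in spleen and almost absent in TIL, and Slc2a1, Slc16a3 and Slc38a2 take a larger share in every TIL library than in any splenic one.

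The cationic carriers of the family take up arginine. Slc7a1 (Cat1) was at 35.9 and 45.3 CPM in WT spleen, 39.2 and 34.9 in KO spleen, 48.8 and 34.1 in WT TIL and 62.9 and 69.7 in KO TIL. It did not pass in WT cells, at 0.03 (SE 0.44, edgeR adjusted p = 0.981), or in KO cells, at 0.85 (SE 0.20, edgeR adjusted p = 0.0742). Slc7a2 (Cat2), an arginine carrier abundant in macrophages, was at 2.12 and 2.42 CPM in WT spleen, 1.89 and 2.08 in KO spleen, 8.26 and 1.21 in WT TIL and 114 and 22.96 in KO TIL. Slc7a2 in KO TIL lay above all other libraries, with KO TIL 1 higher than KO TIL 2, and its log2 fold change over KO spleen was 5.14 (SE 0.92, edgeR adjusted p = 0.0599). Leaving out KO TIL 1, Slc7a2 was among the genes called in KO cells.

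Glutamine and small neutral amino acids enter through Slc1a5, Slc38a1 and Slc38a2. Slc38a2 (Snat2), which amino acid shortage is known to induce, was at 112 and 77.8 CPM in WT spleen, 134 and 87.8 in KO spleen, 519 and 463 in WT TIL and 603 and 571 in KO TIL. It was called higher in WT TIL, at 2.37 (SE 0.47, edgeR adjusted p = 0.017). In KO cells Slc38a2 was also called, at 2.42 (SE 0.30, edgeR adjusted p = 0.0485). Slc38a1 (Snat1) was at 118 and 86.03 CPM in WT spleen, 129 and 115 in KO spleen, 134 and 119 in WT TIL and 164 and 179 in KO TIL. Its log2 fold changes were 0.31 (SE 0.43, edgeR adjusted p = 0.736) in WT and 0.51 (SE 0.20, edgeR adjusted p = 0.166) in KO cells. Slc38a2 held 58.1 to 65.4% of the TPM of both in spleen and 85.3 to 87.6% in TIL, a narrow range in each tissue. Slc1a5 (Asct2) was at 251 and 151 CPM in WT spleen, 216 and 249 in KO spleen, 255 and 261 in WT TIL and 143 and 272 in KO TIL. Its log2 fold changes were smaller than their SE, at 0.37 (SE 0.45, edgeR adjusted p = 0.703) in WT and -0.16 (SE 0.35, edgeR adjusted p = 0.799) in KO cells. The Slc1a5 groups overlapped in KO cells, and KO TIL 1 was the lowest of all 8 libraries.

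Slc1a4 (Asct1), for serine and alanine, was at 4.61 and 0.713 CPM in WT spleen, 6.72 and 10.1 in KO spleen, 6.79 and 3.44 in WT TIL and 11.01 and 8.08 in KO TIL. It was not called. Slc1a3, a glutamate and aspartate carrier, was at 2.72 and 6.56 CPM in WT spleen, 3.33 and 4.99 in KO spleen, 0 and 0 in WT TIL and 0.508 and 0.0748 in KO TIL. WT TIL held 0 counts, so that Slc1a3 was at least 44.4-fold lower there than in WT spleen (edgeR adjusted p = 0.00513). In KO cells Slc1a3 did not pass, at -3.77 (SE 0.96, edgeR adjusted p = 0.0834). Slc1a3 entered through splenic counts alone, so its call in WT cells is no independent test. Slc38a9, the lysosomal arginine sensor, was at 14.7 and 14.3 CPM in WT spleen, 22.2 and 18.5 in KO spleen, 12.6 and 18.9 in WT TIL and 18.8 and 12.8 in KO TIL. Slc36a1, a lysosomal proton-coupled carrier, was at 3.38 and 2.96 CPM in WT spleen, 2.13 and 3.55 in KO spleen, 2.87 and 2.80 in WT TIL and 6.06 and 1.94 in KO TIL. None of the Slc36 carriers, Slc38a6, Slc38a7, Slc38a9 and Slc38a10 had an unadjusted p under 0.05 in either tissue comparison. Slc43a1 (Lat3) was at 9.61 and 5.38 CPM in WT spleen, 8.16 and 7.02 in KO spleen, 2.19 and 3.74 in WT TIL and 1.14 and 2.58 in KO TIL. It stood lower in every TIL library than in any splenic one, without a call in WT cells, at -1.33 (SE 0.65, edgeR adjusted p = 0.287), or KO cells, at -2.02 (SE 0.53, edgeR adjusted p = 0.088). Slc43a2 (Lat4) was at 79.6 and 68.6 CPM in WT spleen, 74.9 and 85.4 in KO spleen, 93.6 and 103 in WT TIL and 193 and 48.6 in KO TIL.

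In the Slc6 family of sodium- and chloride-coupled carriers, Slc6a6, which takes up taurine, was at 71.9 and 87.03 CPM in WT spleen, 86.8 and 90.9 in KO spleen, 151 and 121 in WT TIL and 402 and 166 in KO TIL. Its log2 fold changes were 0.77 (SE 0.43, edgeR adjusted p = 0.346) in WT and 1.70 (SE 0.48, edgeR adjusted p = 0.099) in KO cells. The creatine carrier Slc6a8 was at 0.329 and 1.07 CPM in WT spleen, 0.773 and 0.912 in KO spleen, 4.27 and 3.17 in WT TIL and 13.3 and 3.78 in KO TIL. Both had TIL above spleen in each genotype without a call by edgeR. Slc6a17, a carrier of synaptic vesicles, and Slc6a12, the betaine carrier, had 0 counts in every splenic library. Slc6a17 was at 2.48 and 1.62 CPM in WT TIL and 6.06 and 1.65 CPM in KO TIL, or at least 20.8-fold higher in WT and at least 54.9-fold higher in KO cells. Slc6a12 was at 0.503 and 0.371 and 0.857 and 4.79 CPM, or at least 4.44-fold higher in WT and at least 40.2-fold higher in KO cells. Both entered through TIL counts alone, so their calls in WT cells are no independent test. Slc6a12 had 25 counts in WT TIL and was not called by DESeq2 (adjusted p = 0.0804). In KO cells neither was called.

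The Slc27 proteins take up long-chain fatty acids and join them to coenzyme A. Slc27a1 was at 12.48 and 10.4 CPM in WT spleen, 10.6 and 16.2 in KO spleen, 30.5 and 29.9 in WT TIL and 50.9 and 22.1 in KO TIL, above spleen in TIL of both genotypes. Its log2 fold changes were 1.40 (SE 0.47, edgeR adjusted p = 0.121) in WT and 1.47 (SE 0.52, edgeR adjusted p = 0.142) in KO cells. Slc27a4 was at 16.2 and 10.4 CPM in WT spleen, 17.2 and 19.3 in KO spleen, 20.3 and 14.2 in WT TIL and 31.6 and 17.7 in KO TIL. Its log2 fold changes were 0.37 and 0.45. Neither was called. Slc27a3 had 0 counts in KO spleen and reached 2.19 and 0.710 CPM in KO TIL, at least 20.6-fold higher without a call (adjusted p = 0.0655 by edgeR). It entered through TIL counts alone, so this difference is no independent test.

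KO TIL were compared with WT TIL to see whether carriers differ with Blimp1 in the tumor. Of the 55 genes tested, edgeR called 0 (0% of all 15935 genes), and 6 had an unadjusted p under 0.05 (9.87% of all genes did). DESeq2's Wald test called Slc7a2, Slc7a5 and Slc16a11, all higher in KO TIL, where it called 4.43% of all genes. Both KO libraries lay above both WT libraries for 17 genes (18% of all genes) and below them for 6 (19.4%). The median log2 fold change was 0.29, against 0.04 over all genes, and it was 0.02 with KO TIL 1 left out and 0.62 with KO TIL 2 left out.

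Slc7a5 had the smallest adjusted p, at 204 and 262 CPM in KO TIL and 77.5 and 41.6 CPM in WT TIL, and its log2 fold change was 1.97 (SE 0.41, edgeR adjusted p = 0.252). Slc7a2 was at 114 and 22.96 CPM against 8.26 and 1.21 CPM, or 3.85 (SE 1.19, edgeR adjusted p = 0.392) on the log2 scale. Slc16a11, an orphan monocarboxylate carrier, was at 3.71 and 15.9 CPM against 1.36 and 1.01 CPM, or 3.04 (SE 0.84, edgeR adjusted p = 0.327) on the log2 scale. The KO libraries were unequal for the last of these, KO TIL 2 being the higher, and for Slc7a2 KO TIL 1 was. Slc6a12 was also higher in both KO libraries, at 2.68 (SE 0.99, edgeR adjusted p = 0.476). Slc2a6, a hexose carrier of lysosomal membranes, was so too, at 1.94 (SE 0.76, edgeR adjusted p = 0.505). Slc6a12 had 25 counts in WT TIL and 0 in spleen, so it passed the minimum on counts only with its KO TIL counts. A higher level of Slc6a12 in KO TIL was thus favored by the choice itself, and its difference is no independent test. Of the 6 genes below WT TIL in both KO libraries, the 5 with the smallest p were Slc36a3os (-1.20), Slc2a8 (-0.71), Slc2a9 (-1.07), Slc2a4 (-1.15) and Slc16a6 (-0.36), with adjusted p of 0.504 to 0.767 by edgeR. The last was Slc6a20b (-0.86, edgeR adjusted p = 0.844). Slc2a4 had 37 counts in KO TIL and 0 in spleen, so it passed the minimum on counts only with its WT TIL counts. A lower level of Slc2a4 in KO TIL was thus favored by the choice itself. The carriers most abundant in TIL showed small genotype differences. These were -0.02 (SE 0.49) for Slc16a3, 0.27 (SE 0.41) for Slc2a1, 0.26 (SE 0.29) for Slc38a2 and 0.22 (SE 0.30) for Slc3a2 on the log2 scale.

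The genotype comparison in TIL moved with other measures. For the 6 of the 55 tested genes whose longest transcript holds a window of more than 75% GC, log2 fold changes had a median of 1.05, and for the other 49 of 0.27. The same split over all genes tested gave 0.48 and -0.0011. Slc7a5 increased over the 4 TIL libraries in the same order as the summed CD8 markers (48.2, 148, 406 and 2220.4 CPM in WT TIL 2, WT TIL 1, KO TIL 1 and KO TIL 2). This order held for 7 of the 55 genes (12.7%), against 4.78% of all genes. These were Slc5a11, Slc6a12, Slc7a1, Slc7a5, Slc16a11, Slc16a13 and Slc38a1. The order of the macrophage markers was shared by 8 of the 55 (14.5%, against 8.10% of all genes), among them Slc2a5, Slc6a8, Slc7a7 and Slc7a8, and that of the melanoma markers by 6 (10.9%, against 6.22%). The order of the Treg and CD4 markers was shared by Slc2a8, Slc16a6 and Slc36a3os (5.45%, against 9.02%). With 4 libraries, such an order is a description, and the part of these cells in the differences was not tested.

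**Figure D4:**
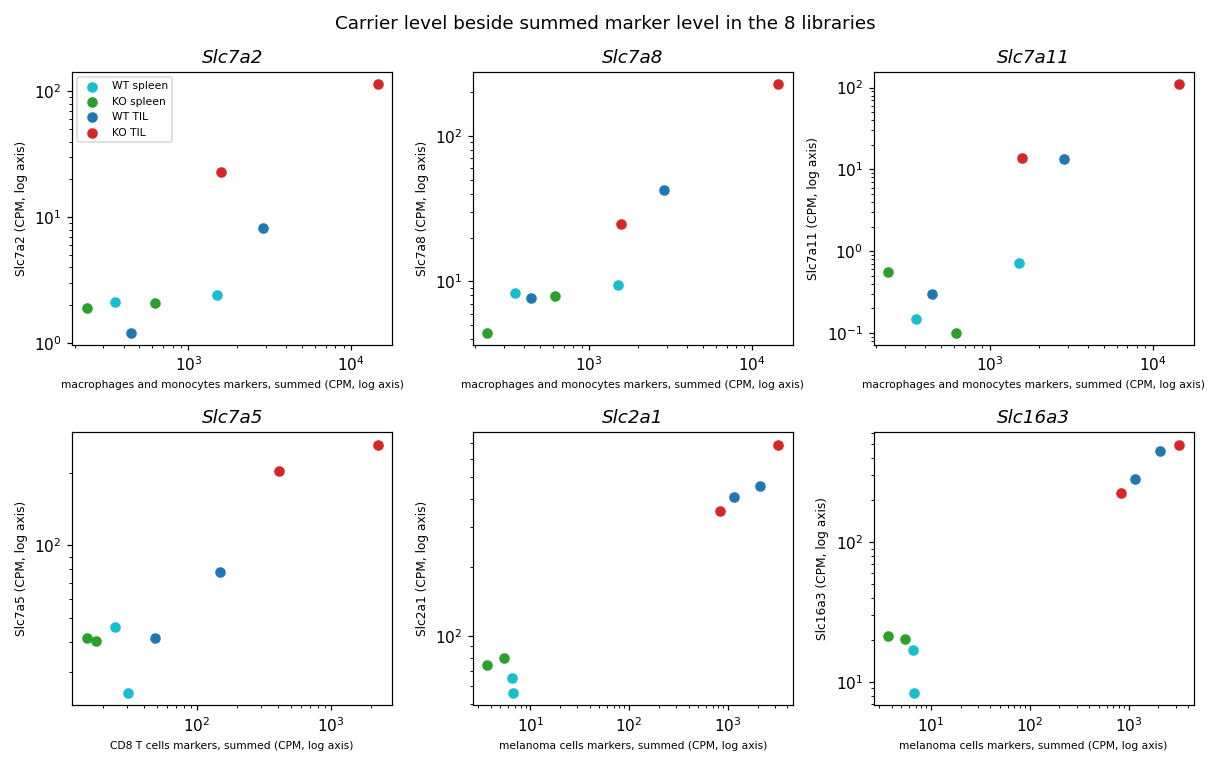
CPM of 6 carriers (y axis, log scale) against the summed CPM of a marker list (x axis, log scale) in the 8 libraries, colored by group: macrophage and monocyte markers for Slc7a2, Slc7a8 and Slc7a11, CD8 markers for Slc7a5, melanoma markers for Slc2a1 and Slc16a3. KO TIL 1 has the highest macrophage sum (14506 CPM) and the highest level of Slc7a2, Slc7a8 and Slc7a11, and the TIL libraries lie to the upper right of the spleen for Slc2a1 and Slc16a3.

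In spleen, 55 genes were tested for a difference between KO and WT cells, and edgeR called 0 (0% of all 16583 genes), with 1 at an unadjusted p under 0.05 (2.95% of all genes). That gene was Slc2a6, at 6.16 and 5.78 CPM in WT spleen and 22.2 and 19.5 CPM in KO spleen, or 1.80 (SE 0.36, edgeR adjusted p = 0.785) on the log2 scale. DESeq2, which called 0.441% of all genes, called this gene alone of the 61 (adjusted p = 0.0166). Both KO libraries exceeded both WT libraries by a wide margin. Without overlap, 13 genes were higher in KO cells (16.4% of all genes) and 5 lower (15.7%), and the median log2 fold change was 0.11, against -0.02 over all genes. Slc1a4 (1.65), Slc16a3 (0.72), Slc7a10 (0.51) and Slc38a9 (0.48) followed among the higher genes. Slc7a8 (-0.52), Slc7a6os (-0.33), Slc3a2 (-0.27), Slc7a2 (-0.20) and Slc5a2 (-0.20) were among the lower. Their edgeR adjusted p was at least 0.878. The number of calls depended on WT spleen 1, as the part on processing describes.

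Whether the genotype difference depended on the tissue was tested as an interaction over all 8 libraries. Of the 61 genes, 0 passed by edgeR (0% of all 17870 genes), and 6 had an unadjusted p under 0.05 (7.83% of all genes). DESeq2 called Slc7a2 (adjusted p = 0.0311), where it called 1.93% of all genes. The interaction for Slc7a2 was 4.05 (SE 1.30, edgeR adjusted p = 0.46) and for Slc7a5 1.75 (SE 0.60, edgeR adjusted p = 0.486). For Slc16a10 it was 3.20 (SE 1.21, edgeR adjusted p = 0.557) and for Slc16a11 3.30 (SE 1.31, edgeR adjusted p = 0.588), each toward a larger KO excess in TIL. The other way lay Slc7a10 (-4.83), Slc2a8 (-0.97), Slc2a9 (-1.34) and Slc16a6 (-0.55). The tissue difference of Slc7a5, which passed in KO and not in WT cells, is thus not shown by edgeR to differ between the genotypes.

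Other genes of nutrient uptake were taken from 5 lists. Of the partners and traffic regulators of carriers, 9 of the 11 listed were tested in each tissue comparison, and 1 was called higher in WT TIL (4.10% of all genes were) and 0 in KO TIL (0.803%). In WT cells 5 of the 9 had an unadjusted p under 0.05 (20.5% of all genes did), and in KO cells 4 of the 9 (31%). The lists were chosen with earlier results of these data known, so such shares are descriptions. Sgk1, a kinase that keeps carriers at the surface, was at 28.8 and 30.5 CPM in WT spleen, 34.4 and 30.3 in KO spleen, 211 and 153 in WT TIL and 426 and 87.7 in KO TIL. It was the gene called, at 2.62 (SE 0.45, edgeR adjusted p = 0.00909) in WT cells. Bsg, the chaperone that Mct1 and Mct4 need, was at 215 and 274 CPM in WT spleen, 232 and 197 in KO spleen, 583 and 438 in WT TIL and 513 and 429 in KO TIL, with 1.06 (SE 0.46, edgeR adjusted p = 0.221) in WT cells. Txnip, which removes Glut1 from the surface, was at 646 and 501 CPM in WT spleen, 789 and 1419.6 in KO spleen, 177 and 267 in WT TIL and 213 and 202 in KO TIL. Every TIL library was below every splenic one, without a call in WT cells, at -1.37 (SE 0.47, edgeR adjusted p = 0.128), or KO cells, at -2.40 (SE 0.38, edgeR adjusted p = 0.0571). Stom, which binds Glut1, was at 15.7 and 15.7 CPM in WT spleen, 162 and 136 in KO spleen, 57.9 and 19.5 in WT TIL and 201 and 30.4 in KO TIL. Between KO and WT spleen it differed by 3.24 (SE 0.35, edgeR adjusted p = 0.14) on the log2 scale and was not called.

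Of 22 genes of amino acid sensing and mTORC1 tested, 0 were called in any comparison by edgeR, with 2 at an unadjusted p under 0.05 in the WT tissue comparison (20.5% of all genes were) and 6 in the KO one (31%). Neither share is above that of all genes. Sesn2, a leucine sensor that starvation induces, was at 17.3 and 12.3 CPM in WT spleen, 20.3 and 16.9 in KO spleen, 38.9 and 31.1 in WT TIL and 50.98 and 34.02 in KO TIL. Sesn3 was at 58.1 and 77.2 CPM in WT spleen, 64.5 and 63.5 in KO spleen, 17.7 and 24.1 in WT TIL and 16.9 and 25.5 in KO TIL. In every TIL library Sesn2 was above and Sesn3 below the splenic libraries. Sesn1 was at 117 and 61.9 CPM in WT spleen, 101 and 116 in KO spleen, 79.3 and 70.9 in WT TIL and 34.1 and 22.2 in KO TIL, and both KO TIL libraries lay under all others. Of 13 transcription factors of carriers tested in the tissue comparisons, 1 was called, against 4.10% of all genes called higher and 1.87% lower in WT cells. This was Ppargc1a, a coactivator of mitochondrial genes (edgeR adjusted p = 0.0029 in WT cells). It was at 0 and 0.0713 CPM in WT spleen, 0 and 0.203 in KO spleen, 16.4 and 8.16 in WT TIL and 30.6 and 4.52 in KO TIL. Hif1a, the oxygen-regulated factor, was at 765 and 172 CPM in WT spleen, 969 and 822 in KO spleen, 1669 and 1868 in WT TIL and 985 and 700.4 in KO TIL, with WT spleen 2 far under the others. Atf4, which answers amino acid shortage, was at 58.8 and 71.8 CPM in WT spleen, 62.01 and 38.99 in KO spleen, 123 and 106 in WT TIL and 186 and 139 in KO TIL. Neither passed in WT or KO cells. Of the 13 factors, 3 had an unadjusted p under 0.05 in WT cells (20.5% of all genes did) and 5 in KO cells (31%). KO TIL stood below WT TIL without a call for Hif1a, at -1.07 (SE 0.35, edgeR adjusted p = 0.409), and for Myc, at -1.02 (SE 0.33, edgeR adjusted p = 0.409).

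Of 10 genes of fatty acid uptake tested, 0 were called in KO TIL, and 6 had an unadjusted p under 0.05 there (31% of all genes did). In WT cells 6 of the 10 also had an unadjusted p under 0.05 (20.5% of all genes did). Cd36, a fatty acid receptor, was called higher in WT TIL. Cd36 was at 1.83 and 1.46 CPM in WT spleen, 0.515 and 0.811 in KO spleen, 174 and 23.2 in WT TIL and 331 and 68.01 in KO TIL, with 5.91 (SE 0.91, edgeR adjusted p = 0.00537) in WT cells. KO TIL 1, with its high macrophage markers, had the highest level of Cd36, and WT TIL 2 the lowest of the TIL libraries. Of 19 enzymes that use carried amino acids and lactate, Arg1 and Asns were called higher in both genotypes (4.10% of all genes were in WT cells and 0.803% in KO cells) and Gclc lower in WT cells (1.87%). Of the 19, 9 had an unadjusted p under 0.05 in WT cells (20.5% of all genes did) and 10 in KO cells (31%). Arg1, which splits arginine and is abundant in macrophages, was at 0.808 and 1.18 CPM in WT spleen, 1.16 and 1.14 in KO spleen, 276 and 51.01 in WT TIL and 525 and 239 in KO TIL. Asns, which makes asparagine, was at 9.22 and 6.70 CPM in WT spleen, 12.8 and 9.53 in KO spleen, 59.4 and 49.996 in WT TIL and 80.3 and 88.2 in KO TIL. The log2 fold changes of Asns were 2.78 (SE 0.47, edgeR adjusted p = 0.00851) in WT and 2.93 (SE 0.25, edgeR adjusted p = 0.0366) in KO cells. Gclc, the enzyme that starts glutathione synthesis from cysteine, was at 29.5 and 23.7 CPM in WT spleen, 39.6 and 42.5 in KO spleen, 7.04 and 6.48 in WT TIL and 36.4 and 31.3 in KO TIL. It had -1.98 (SE 0.50, edgeR adjusted p = 0.0439) in the WT tissue comparison and 2.32 (SE 0.35, edgeR adjusted p = 0.179) for KO over WT TIL. The medians of the 5 lists for KO over WT TIL ranged from 0.07 to 0.69, against 0.04 over all genes.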

How the data were processed

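Poly(A)-independent libraries were made from sorted cells by rRNA removal and random priming, and sequenced as paired reads on a HiSeq. Per the labels, the authors trimmed reads with Trimmomatic 0.36, aligned them to GRCm38 with STAR 2.5.2b, counted unique reads within exons with featureCounts (Subread 1.5.2) and deposited raw counts per gene. The strand setting is not given in the sources used here, so overlapping genes cannot be told apart. The authors also deposited normalized counts, a signal equal to the count divided by 1 size factor per library, and 100% of its values were whole reads within 0.01 once multiplied back. It holds the genes with more than 80 counts and served only to choose the members.

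The counts were tested with edgeR 4.0.16 (R 4.3.3, quasi-likelihood, TMM, filterByExpr) on the 4 libraries of a comparison, and on 8 for the interaction, with Benjamini-Hochberg adjustment over all genes. Called means an adjusted p under 0.05 and a log2 fold change beyond 1 in either direction. The standard error is the log2 fold change divided by the square root of F. Groups at 0 counts were set to a floor of 3 counts per library (0.0702 to 0.104 CPM as the mean of a group). Intervals and floors cover counting error only, since amplified reads with no molecular identifier can be copies of the same molecule. Replicates differed by more than the sampling noise, so none was a repeated deposit.

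Genes named are a list of 26 carriers known in activated T cells, up to 8 called members in each direction, where a comparison had fewer than 4 calls in a direction the 5 with the smallest p and no overlap, and the 2 genes per direction with the smallest p of each pathway list. Slc2a4rg-ps, Slc5a3, Slc16a13, Slc27a3, Slc36a4 and other members outside this rule are mentioned to account for them. Some results that this rule would name are not reported here. The members and lists were chosen with earlier results of these data known. Alternatives were DESeq2 1.42.0, its size factors in edgeR, no filter on low counts, no limit on the fold change, the replicate number as a block, fits over all libraries, and leaving out each library.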

Additional observations from a re-analysis of the deposited data

Results flagged for a closer look

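For 4 genes every KO library lay on one side of the WT libraries in TIL and on the other side in spleen. The interaction of genotype and tissue by edgeR passed for none of them. The share of all genes with this pattern is not given, so the number of genes is a description and supports nothing. Slc7a2, the arginine carrier Cat2, had an interaction of 4.05 on the log2 scale (standard error 1.30, adjusted p = 0.460), with KO above WT in TIL and below it in spleen, and DESeq2 gave it an adjusted p of 0.0311. Slc7a10, the light chain Asc-1, had -4.83 (standard error 1.65, edgeR adjusted p = 0.489), and it rests on 24 counts in WT TIL and 1 count in KO TIL. KO TIL 1 and WT TIL 1 held 1 count each, so its order in TIL hangs on single counts. Slc2a8, an intracellular hexose carrier, had -0.97 (standard error 0.44, adjusted p = 0.664). Slc3a2, the CD98 heavy chain, had 0.49 (standard error 0.43, adjusted p = 0.842).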

How the results depend on the processing

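In WT TIL against WT spleen 12 members were called, and 3 to 12 with a library left out, the 3 without WT spleen replicate 2. In KO TIL against KO spleen the 5 calls became 27 with DESeq2's Wald test, 25 with no filter on low counts, 22 with all libraries in the fit, 3 with the replicate block (Slc16a3, Slc7a10 and Slc7a11, while Slc7a5, Slc3a2 and Slc38a2 had edgeR adjusted p of 0.0538 to 0.0706) and 26 with the crossed replicate block, which was chosen after seeing the data because same-numbered KO libraries deviated apart (correlation -0.22). Leaving out a library gave 0 to 34, with 0 without KO spleen replicate 1 or 2, 25 without KO TIL replicate 1 and 34 without KO TIL replicate 2. In KO TIL against WT TIL the 0 calls became 3 with DESeq2, 7 with no filter and 5 with the replicate block (Slc7a2, Slc7a5, Slc7a8, Slc7a11 and Slc16a10), and stayed at 0 with each library left out. In KO spleen against WT spleen the 0 became 1 with DESeq2, with no filter and with the replicate block, Slc2a6 each time, and 0 to 12 with a library left out, the 12 without WT spleen replicate 1. For the interaction the 0 became 1 with DESeq2 and 7 with no filter. With 2 pairs, the numbers were not taken to pair the samples, and the cause of these changes was not tested. Apart from DESeq2's calls between genotypes and for the interaction, the shares of all genes called under these alternatives are not given. The counts of members called are therefore descriptions.

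The median log2 fold change ranged with a library left out from 0.24 to 0.71 in WT cells, 0.27 to 0.93 in KO cells, 0.0198 to 0.62 for KO over WT TIL and 0.0549 to 0.34 for KO over WT spleen. Among 651 values of named genes under alternatives, 650 kept their direction. The exception was Slc7a11 in WT TIL against WT spleen, whose values ranged from -0.47, without WT TIL replicate 1, to 5.54 with a library left out. A fit with a library left out assumes that the lone library varies like the other group.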
